A study of Mus musculus with 9 samples.

Results

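Imprinted genes are expressed mainly from the copy inherited from 1 parent, and they were followed here across mouse oviducts and Dicer1 mutant tumors. The members were a list of 44 symbols of known mouse imprinted genes, and every row of the expression table with one of these symbols was kept. Of the 44 symbols, 42 were in the table. Snrpn occurs in 2 entries, so the members made up 43 of the 19435 entries of the table. Magel2 and Peg13 were not among its rows and are not analysed here.

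Messenger RNA was sequenced from 5 normal oviducts and 4 primary tumors, all from mice without treatment, and the labels give oviduct as the tissue of all 9 libraries. Oviducts 1 to 3 carried 1 wild-type and 1 D1693N allele (Dicer1+/D1693N), oviducts 4 and 5 were wild type (Dicer1+/+), and tumors 1 to 4 were Dicer1ko/D1693N. The D1693N allele was thus shared by the tumors and oviducts 1 to 3. Dicer1 encodes the RNase III enzyme that cuts miRNA precursors, and D1693N lies in its RNase IIIb domain. The driver of the Dicer1 deletion, the strain and the ages are not given in the sources used here. The labels do not say that libraries of a group came from separate animals, so p-values measure only the spread between these samples.

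Imprinted genes lie in clusters, where a differentially methylated control region laid down in the germ line directs which parental copy is active. Many of those expressed from the paternal copy promote fetal growth, and several expressed from the maternal copy restrain it. A number of them, such as H19, Igf2 and Dlk1, are abundant in the fetus and placenta and fall to low levels in most adult tissues. The reads were not assigned to parental alleles here, so the parental names below are background and no loss or gain of imprinting was measured.

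Levels are normalized counts, that is, reads divided by the library's size factor, and group values are means ± SD over 5 oviducts or 4 tumors. Differences are tumor minus oviduct on the deposited log2 scale, ± SE. The call rule was a limma adjusted p under 0.05 (Benjamini-Hochberg over all 19435 entries) together with a difference of at least 1 in either direction. Gene positions are those of GENCODE M21 on GRCm38. The libraries held 8504993 to 12526078 reads. Dicer1 itself stood at 904 to 1237 normalized counts in the oviducts and at 576 to 1379 in the tumors, and a count over the whole gene cannot check a deletion of part of it. The summed markers of ciliated epithelium were 17066 to 27051 in the oviducts and 14.7 to 563 in the tumors, and those of fibroblasts and mesenchyme were 21616 to 39387 and 96818 to 105321. Of these lists 7 of 7 ciliated markers were called lower and 5 of 8 mesenchymal markers higher, and 6 of 8 endothelial and 5 of 7 macrophage markers were also called higher. The part of these cells in the levels of imprinted genes was not tested. In bulk tissue, fewer cells of a type and less RNA per cell cannot be told apart. Tumor 4 differed from the other tumors in its fat cell markers, whose sum was 89724 normalized counts against 33.8 to 204.9 in tumors 1 to 3 and 2138 to 15700 in the oviducts.

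Several of the members that differed most carry miRNA hairpins, and DICER1 acts on such hairpins. The mature sequences of 3 hosts called higher, H19, Igf2 and Mest, are therefore shown. They are RefSeq sequences on GRCm38.p6, written 5′ to 3′, with the seed (bases 2 to 8) in capitals.
miR-675-5p in an exon of H19, chr7:142577112-142577133, minus strand: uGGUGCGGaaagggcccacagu
miR-675-3p in an exon of H19, chr7:142577078-142577099, minus strand: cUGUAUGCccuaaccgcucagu
miR-483-5p in an intron of Igf2, chr7:142654968-142654989, minus strand: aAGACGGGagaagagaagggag
miR-483-3p in an intron of Igf2, chr7:142654932-142654952, minus strand: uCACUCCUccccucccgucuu
miR-335-5p in an intron of Mest, chr6:30741314-30741336, plus strand: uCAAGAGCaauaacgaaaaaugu
miR-335-3p in an intron of Mest, chr6:30741354-30741375, plus strand: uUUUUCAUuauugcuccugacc
The 6 seeds differ from one another, and in the RefSeq table each seed was held by 1 mature miRNA. Hairpins of the RefSeq table also lie inside Mirg (14), Rtl1 (7, of which 1 on the strand of Rtl1), Rian (3), Meg3 (1) and Usp29 (1). Of these hosts Usp29 was also called higher, and its miRNA sequences are not shown. The libraries measured the host transcripts and not these miRNAs.

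A larger share of the members was called than of the table as a whole. Of the 43 entries, 20 were called between tumors and oviducts (46.5%), against 18.7% of all entries. The members were chosen with earlier results of these data known, so these shares describe the list and are not a test. The called members were 14 higher entries (32.6%, against 6.53% of all entries) and 6 lower entries (14%, against 12.1%). The higher members were H19, Igf2, Igf2r, Cdkn1c, Mest, Copg2, Dlk1, Peg3, Usp29, Zim1, Peg10, Peg12, Grb10 and Slc38a4. The lower ones were Slc22a18, both entries of Snrpn, Zdbf2, Nap1l5 and Sfmbt2. Quantile normalization called 15 members higher and 6 lower while moving the split of all entries from 1269 higher and 2356 lower to 1696 and 1943. Limma-voom on recovered reads called 8 members higher and 7 lower, where 6.49% and 14.7% of all entries were. The median difference was 0.33 over the members and -0.05 over all entries. Complete separation of the groups was not more frequent among members: in 10 of 43 the 4 tumors lay wholly above or wholly below the oviducts (23.3%), against 27.6% of all entries. By the parental copy known to be expressed, 5 of 16 maternal entries were called higher and 1 lower, while 8 of 23 paternal entries were called higher and 5 lower. The other 4, with isoforms or tissues of either kind, held 1 higher entry.

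**Figure D1:**
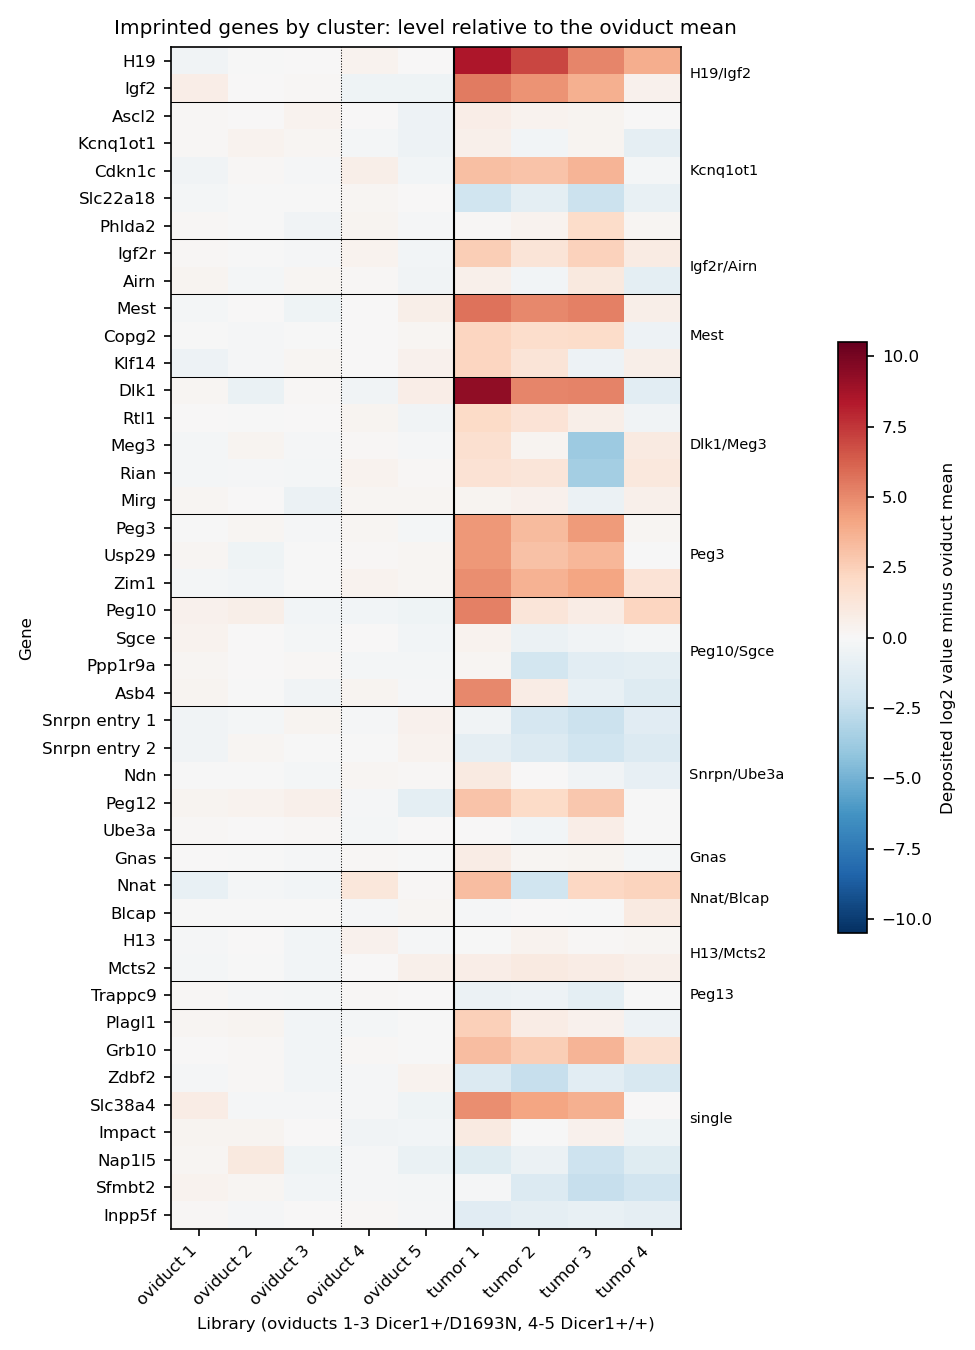
Deposited log2 value of each imprinted gene (rows, grouped by cluster) minus its mean over the 5 oviducts, in each of the 9 libraries (columns); red is higher and blue lower. The rows of H19, Mest, Peg3, Zim1 and Slc38a4 are red in tumors 1 to 3 and paler in tumor 4, and Meg3 and Rian are clearly blue in tumor 3.

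**Figure D2:**
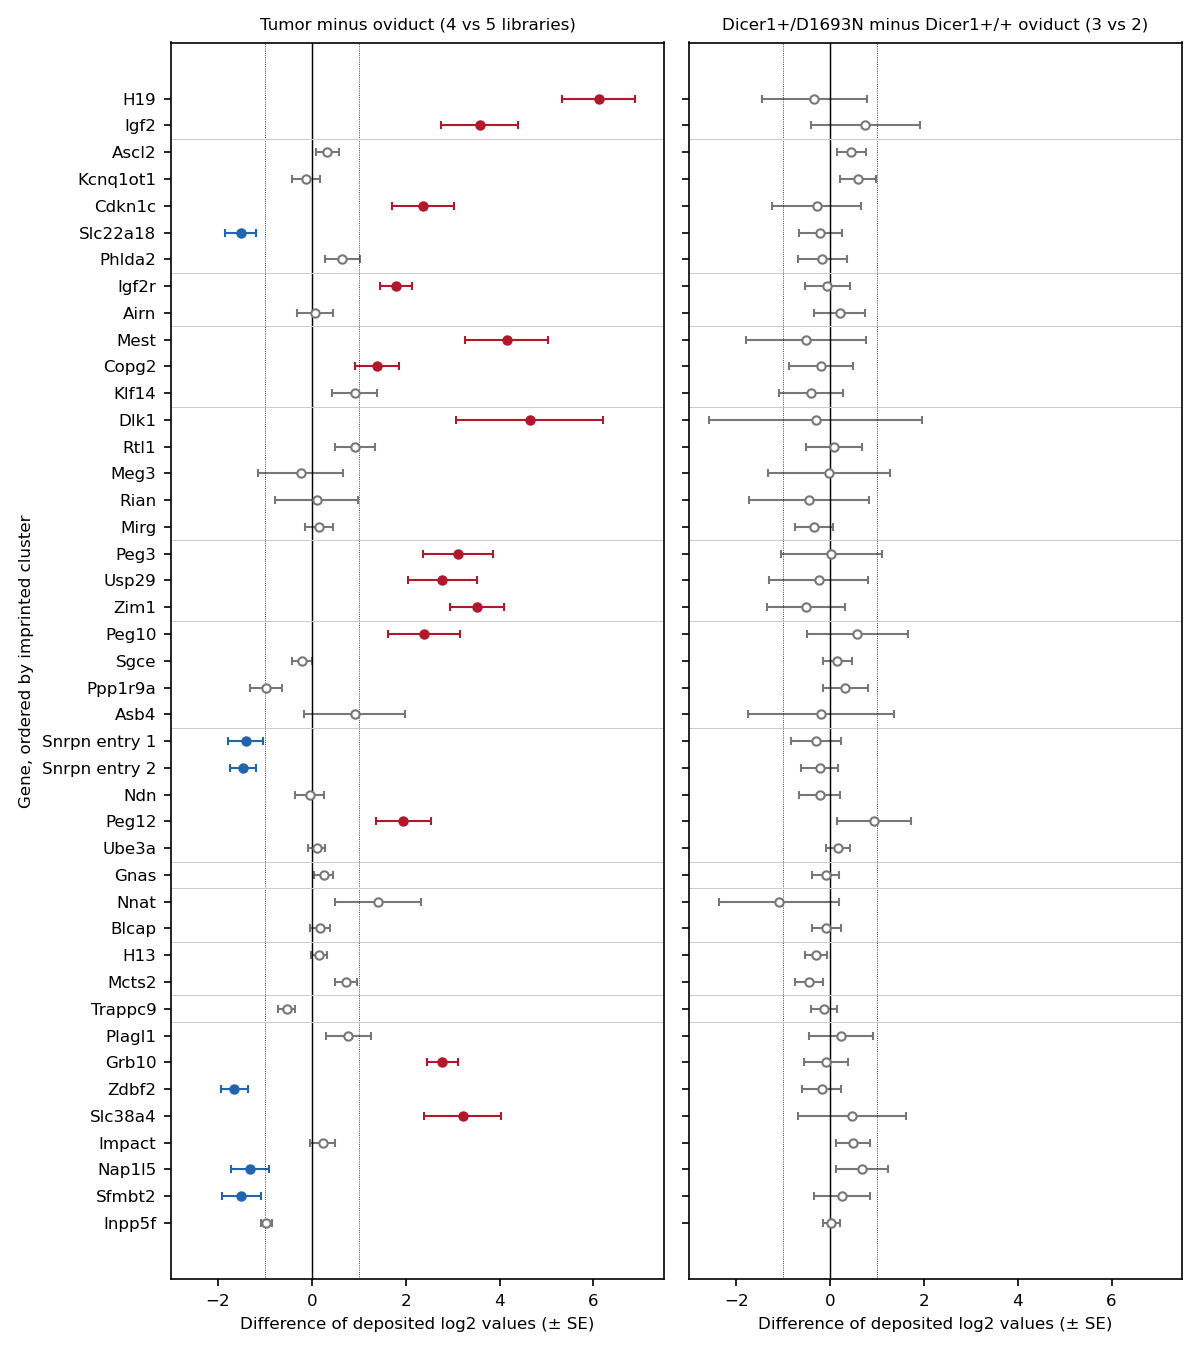
Difference of deposited log2 values ± SE for each imprinted gene, tumor minus oviduct on the left (4 against 5 libraries) and Dicer1+/D1693N minus Dicer1+/+ oviduct on the right (3 against 2). Filled red and blue points were called higher (14) and lower (6), open points were not called, and no point on the right was called.

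The 2 genes of the H19/Igf2 cluster on chromosome 7 both rose. H19, a noncoding RNA of fetal tissue expressed from the maternal copy (chr7:142575529-142578143, minus strand), stood at 19, 27.7, 30.8, 41.7 and 31.3 normalized counts in oviducts 1 to 5. In tumors 1 to 4 it stood at 17820.3, 6374, 1650.5 and 644. All 4 tumors lay above every oviduct, and they spanned a wide range among themselves. The difference was 6.11 ± 0.77 (adjusted p = 0.00022). Igf2, the paternally expressed fetal growth factor (chr7:142650766-142666816, minus strand), stood at 264.5, 159.5, 165, 106 and 106 in the oviducts and at 7487, 4495, 2229 and 218 in the tumors. Tumors 1 to 3 lay far above the oviducts, and tumor 4 lay inside their range. The difference was 3.58 ± 0.82 (adjusted p = 0.00811). Per kilobase of exon, H19 was lower than Igf2 in each oviduct, at a ratio of 0.167 to 0.913. It was higher than Igf2 in each tumor, at a ratio of 5.54, 3.30, 1.72 and 6.88 in tumors 1 to 4. Tumor 4, where Igf2 lay in the oviduct range, had the highest of these ratios. Igf2 shares 98 exonic bases with its antisense gene Igf2os and 3596 with a readthrough gene model, and the strand of the libraries is not stated, so such reads cannot be told apart.

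Igf2r, the receptor that clears IGF2 and is expressed from the maternal copy (chr17:12682406-12769664, minus strand), also rose. Its level was 1423, 1271, 1224, 1716 and 1081 in the oviducts and 8185, 3327, 7061 and 2431 in the tumors, without overlap. The difference was 1.79 ± 0.34 (adjusted p = 0.00263). Airn, the paternally expressed antisense RNA that silences the paternal Igf2r copy, stood at 154, 103, 140.3, 137 and 88.2 in the oviducts and 184.5, 94.3, 268 and 51.5 in the tumors. Airn was lowest in tumor 4 and highest in tumor 3, and its difference was 0.06 ± 0.38 (adjusted p = 0.930). The ratio of Igf2r to Airn per kilobase was 3.37 to 4.85 in the oviducts and 10.2 to 18.2 in the tumors. The ratio of Igf2 to its clearance receptor was 0.101 to 0.302 in the oviducts. It was 1.49, 2.20 and 0.513 in tumors 1 to 3 and 0.146 in tumor 4, inside the oviduct range.

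In the Kcnq1ot1 cluster, which adjoins H19 and Igf2, the members went in different directions. Cdkn1c, the maternally expressed inhibitor of cyclin-dependent kinases (chr7:143458339-143461050, minus strand), stood at 246, 356, 303.5, 521 and 257 in the oviducts. Its tumor values were 3039, 2711, 4027 and 273, so tumors 1 to 3 were 8.05 to 12 times the oviduct mean and tumor 4 was among the oviducts. The difference was 2.36 ± 0.66 (adjusted p = 0.0207). The call was lost without tumor 1 (2.10, adjusted p = 0.0584), tumor 2 (2.16, adjusted p = 0.0584) or tumor 3 (1.97, adjusted p = 0.0516). Slc22a18, a transporter gene next to it, fell. It stood at 157, 181, 184, 215 and 194 in the oviducts and at 30.1, 82.9, 23.6 and 103 in the tumors. No tumor reached the lowest oviduct, and the difference was -1.52 ± 0.33 (adjusted p = 0.00553). Kcnq1ot1, the paternally expressed noncoding RNA that silences the cluster, stood at 352, 415, 352, 274 and 206.5 in the oviducts and 449, 244, 380.5 and 155 in the tumors, with a difference of -0.12 ± 0.30 (adjusted p = 0.797). The overlapping groups showed no called change of this RNA while its neighbor Cdkn1c rose. Per kilobase, the ratio of Cdkn1c to Kcnq1ot1 was 31.9 to 86.7 in the oviducts, 309, 507 and 483 in tumors 1 to 3 and 80.8 in tumor 4. Phlda2, which restrains placental growth, stood at 4.46, 2.99, 0.995, 6.29 and 2.23 in the oviducts and 3.88, 6.81, 49.5 and 5.26 in the tumors. Tumor 3 alone stood out, and the difference was 0.65 ± 0.37 (adjusted p = 0.206). Ascl2, a transcription factor of the placenta and of intestinal stem cells, stayed low at 10, 8.24, 13.9, 7.86 and 2.23 in the oviducts and 20.4, 13.6, 12.4 and 8.41 in the tumors, with a difference of 0.33 ± 0.24 (adjusted p = 0.323).

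The Mest cluster held one of the largest rises. Mest, a paternally expressed gene for a hydrolase-like protein abundant in embryonic mesoderm (chr6:30723547-30748465, plus strand), stood at 113, 131, 89.6, 131 and 205 in the oviducts. In the tumors it stood at 7770.0, 4922, 5768 and 204. Tumors 1 to 3 were 36.7 to 58.0 times the oviduct mean, and tumor 4 was 1.52 times that mean and just below oviduct 5. The difference was 4.15 ± 0.88 (adjusted p = 0.00543). Copg2, a coat protein gene that converges on Mest from the other strand, stood at 776, 707.5, 776, 817.5 and 909 in the oviducts and 3958, 2879.8, 3033 and 556 in the tumors. Tumor 4 was below every oviduct and the other 3 were above them all. Its difference of 1.38 ± 0.47 (adjusted p = 0.0473) lay near the threshold, and the call was lost without any 1 library other than tumor 4. The adjusted p was then 0.0738 without oviduct 5, 0.0826 to 0.0934 without another oviduct, and 0.122, 0.114 and 0.103 without tumors 1, 2 and 3. Mest and Copg2 share 912 exonic bases, and with the strand not stated part of their counts cannot be told apart. The ratio of Mest to Copg2 per kilobase was 0.150 to 0.293 in the oviducts, 2.22 to 2.55 in tumors 1 to 3 and 0.476 in tumor 4. Klf14, a transcription factor gene of the same cluster, was near 0 in the oviducts at 0, 0.749, 2.99, 1.57 and 5.58. It stood at 54.4, 20.4, 0 and 7.36 in the tumors, and it was not called at 0.91 ± 0.48 (adjusted p = 0.178). Without tumor 3, which held no Klf14 read, the difference was 1.40 and called (adjusted p = 0.0186). Without tumor 1 it was 0.47.

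The 3 members of the Peg3 cluster on proximal chromosome 7 rose together. Peg3, a paternally expressed zinc finger protein (chr7:6703892-6730431, minus strand), stood at 235.5, 281.5, 215, 273 and 204 in the oviducts and at 5940.4, 2522, 5630.5 and 278 in the tumors. Usp29, which runs from the same start region in the other direction and is also paternal (chr7:6730578-6967219), stood at 2.23, 0, 0.995, 1.57 and 2.23 in the oviducts and at 322, 104.5, 149 and 1.05 in the tumors. Zim1, a maternally expressed zinc finger gene downstream (chr7:6671269-6696450, minus strand), stood at 1.12, 0.749, 1.99, 6.29 and 4.47 in the oviducts and 499, 193, 285 and 27.3 in the tumors. In all 3 genes tumor 1 was highest and tumor 4 was far below the other tumors. For Peg3 and Usp29 tumor 4 lay within the oviduct range, while for Zim1 it lay above every oviduct. The differences were 3.11 ± 0.74 (adjusted p = 0.00971) for Peg3, 2.78 ± 0.74 (adjusted p = 0.0162) for Usp29 and 3.52 ± 0.58 (adjusted p = 0.00128) for Zim1. The Usp29 values of the oviducts and tumor 4 rest on very few reads, since 3 reads correspond to at most 3.41 normalized counts. Per kilobase Peg3 was far above Usp29, by 124 to 293 times in the 4 oviducts with a Usp29 read, by 25 to 51.4 times in tumors 1 to 3 and by 358 times in tumor 4. Usp29 shares 2582 exonic bases with the antisense gene Zim3.

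Because Peg3 and Usp29 rose together from starts 164 bases apart, the 163 bases between these RefSeq starts are shown (GRCm38.p6, plus strand, CpG in capitals).
Peg3 to Usp29, chr7:6730420-6730582: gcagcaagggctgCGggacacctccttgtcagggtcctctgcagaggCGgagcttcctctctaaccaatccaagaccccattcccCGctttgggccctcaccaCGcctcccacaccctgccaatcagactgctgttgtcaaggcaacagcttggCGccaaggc
This stretch held 5 CpG. The 250 bases before a Mest start are shown for comparison, with the hexamer TGCCGC or its reverse complement in capitals; TGCCGC is the core that the imprint-protecting factor ZFP57 binds when methylated.
Mest, chr6:30737800-30738049, plus strand: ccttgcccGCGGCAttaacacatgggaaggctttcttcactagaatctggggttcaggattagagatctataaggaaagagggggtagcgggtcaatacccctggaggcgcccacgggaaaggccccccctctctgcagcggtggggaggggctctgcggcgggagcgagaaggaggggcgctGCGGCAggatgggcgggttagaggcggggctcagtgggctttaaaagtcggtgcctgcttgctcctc
The Mest stretch held 14 CpG and 2 hexamers, and the Peg3 to Usp29 stretch held 0. TGCCGC was searched on both strands in 300 bases around each RefSeq start. It was present in 13 of 54 windows of 35 genes of the list (24.1%) and in 11.6% of all 32851 windows. These genes include Magel2, which is not in the expression table. Windows of a gene can overlap, and the Mest windows from chr6:30737800 and chr6:30737803 hold the same 2 hexamers, so windows are not independent. The median number of CpG in the 250 bases before the start was 10 for member windows and 6 for all. TGCCGC itself holds a CpG, and the windows were not matched for CpG. A match says only that the letters are there, and neither methylation nor ZFP57 binding was measured.

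**Figure D3:**
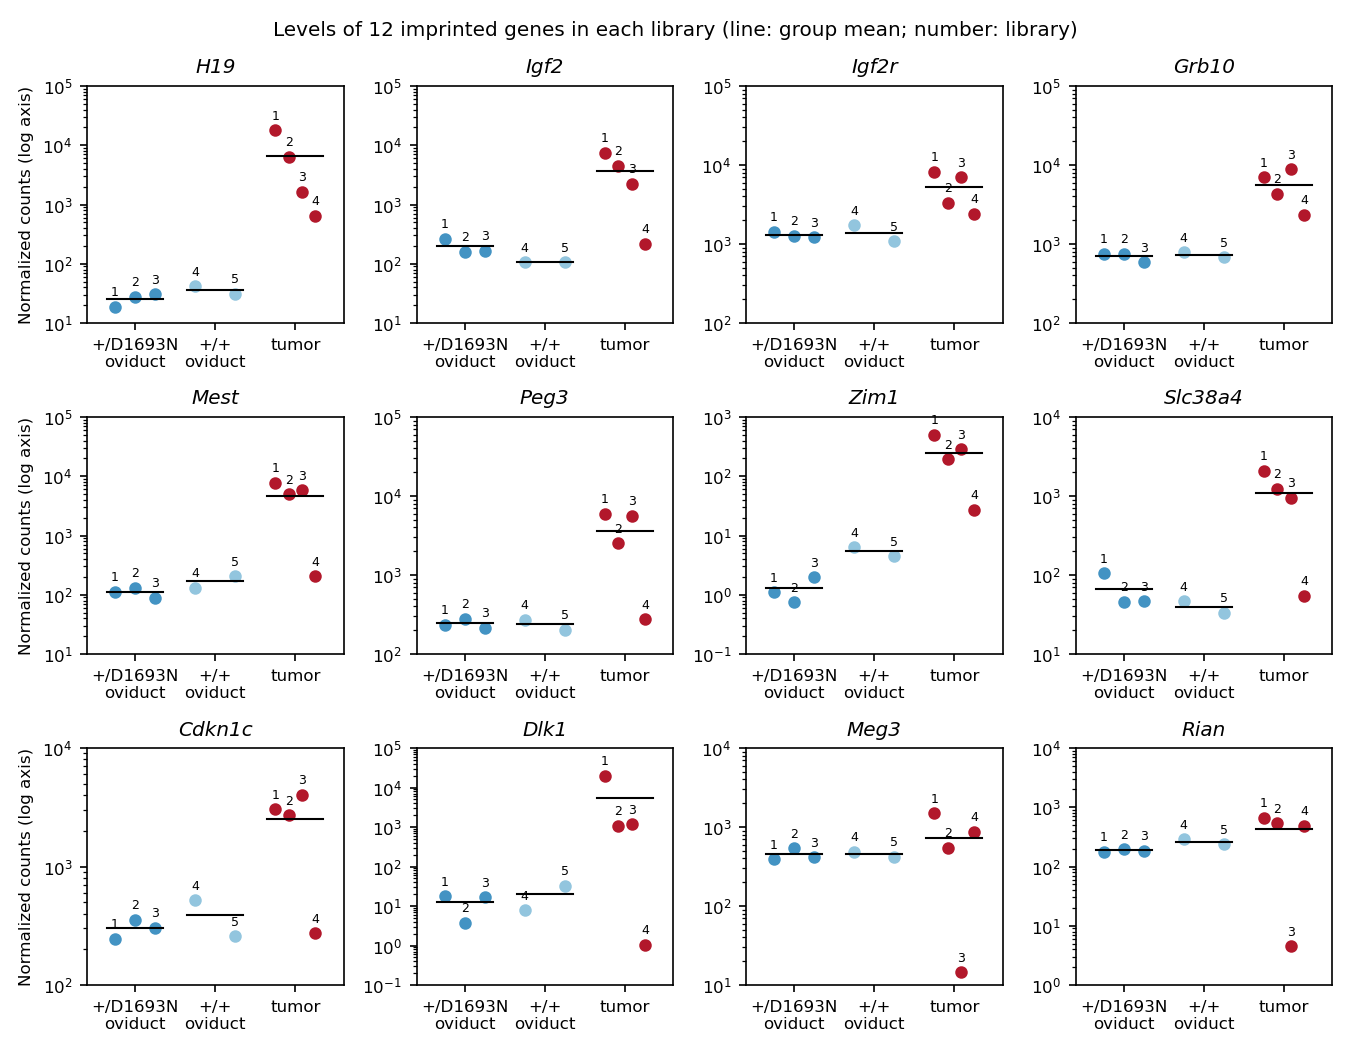
Normalized counts (log axis) of 12 imprinted genes in each library, in Dicer1+/D1693N oviducts, Dicer1+/+ oviducts and tumors; points are libraries with their number, and lines are group means. Tumor 4 lies near the oviducts for Igf2, Mest, Peg3, Slc38a4 and Cdkn1c and below them for Dlk1, and tumor 3 lies below all others for Meg3 and Rian.

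In the Dlk1/Meg3 cluster on chromosome 12, Dlk1 alone was called. Dlk1, a paternally expressed transmembrane protein of fetal and progenitor cells (chr12:109452823-109463336, plus strand), stood at 17.9, 3.74, 16.9, 7.86 and 32.4 in the oviducts. In the tumors it stood at 19984, 1082, 1161 and 1.05, so 3 tumors were high and tumor 4 was the lowest of all 9 libraries. The difference was 4.64 ± 1.57 (adjusted p = 0.0463), and its SE was the largest among the members. This call was lost without any 1 library other than tumor 4. The adjusted p was 0.0800, 0.0931, 0.0809, 0.0874 and 0.0713 without oviducts 1 to 5, and 0.0971 and 0.0862 without tumors 2 and 3. Without tumor 1 the difference was 3.08 (adjusted p = 0.101). Rtl1, the retrotransposon-derived gene of the paternal copy, was nearly silent in the oviducts at 1.12, 0.749, 0.995, 2.36 and 0. It reached 36.9, 19.3, 5.63 and 0 in the tumors and was not called at 0.92 ± 0.42 (adjusted p = 0.123). Without tumor 4 it was called at 1.35 (adjusted p = 0.00836), and without tumor 1 the difference was 0.55.

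Of the maternal noncoding RNAs of this cluster, Meg3 and Rian were far lower in tumor 3 than in any other library. Meg3 (chr12:109541001-109571726, plus strand) stood at 393, 542, 413, 487 and 419.8 in the oviducts and at 1495.5, 547, 14.6 and 873 in the tumors. Rian, which holds many small nucleolar RNAs, stood at 177.5, 198, 185, 286 and 238 in the oviducts and at 666, 534, 4.5 and 490.1 in the tumors. Mirg, with 14 miRNA hairpins, stood at 11.2, 8.98, 1.99, 11.0 and 12.3 in the oviducts and 12.6, 15.9, 2.25 and 17.9 in the tumors. In tumor 3 Meg3 was 0.0325 times and Rian 0.0208 times the oviduct mean, while Mirg lay within the oviduct range. Tumors 1, 2 and 4 were above every oviduct for these RNAs. Over the 4 tumors none was called, with differences of -0.24 ± 0.90 (adjusted p = 0.870) for Meg3, 0.10 ± 0.89 (adjusted p = 0.948) for Rian and 0.15 ± 0.29 (adjusted p = 0.727) for Mirg. Without tumor 3 the Meg3 difference was 0.97 and the Rian difference was 1.31 (adjusted p = 0.000779). The ratio of Meg3 to Rian per kilobase was 1.71 to 2.76 in the oviducts and 1.03 to 3.28 in the tumors, tumor 3 included. Dlk1 and Meg3 were not tied in this way. Their ratio per kilobase was 0.0221 to 0.247 in the oviducts, 42.7, 6.32 and 254 in tumors 1 to 3 and 0.00385 in tumor 4.

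**Figure D4:**
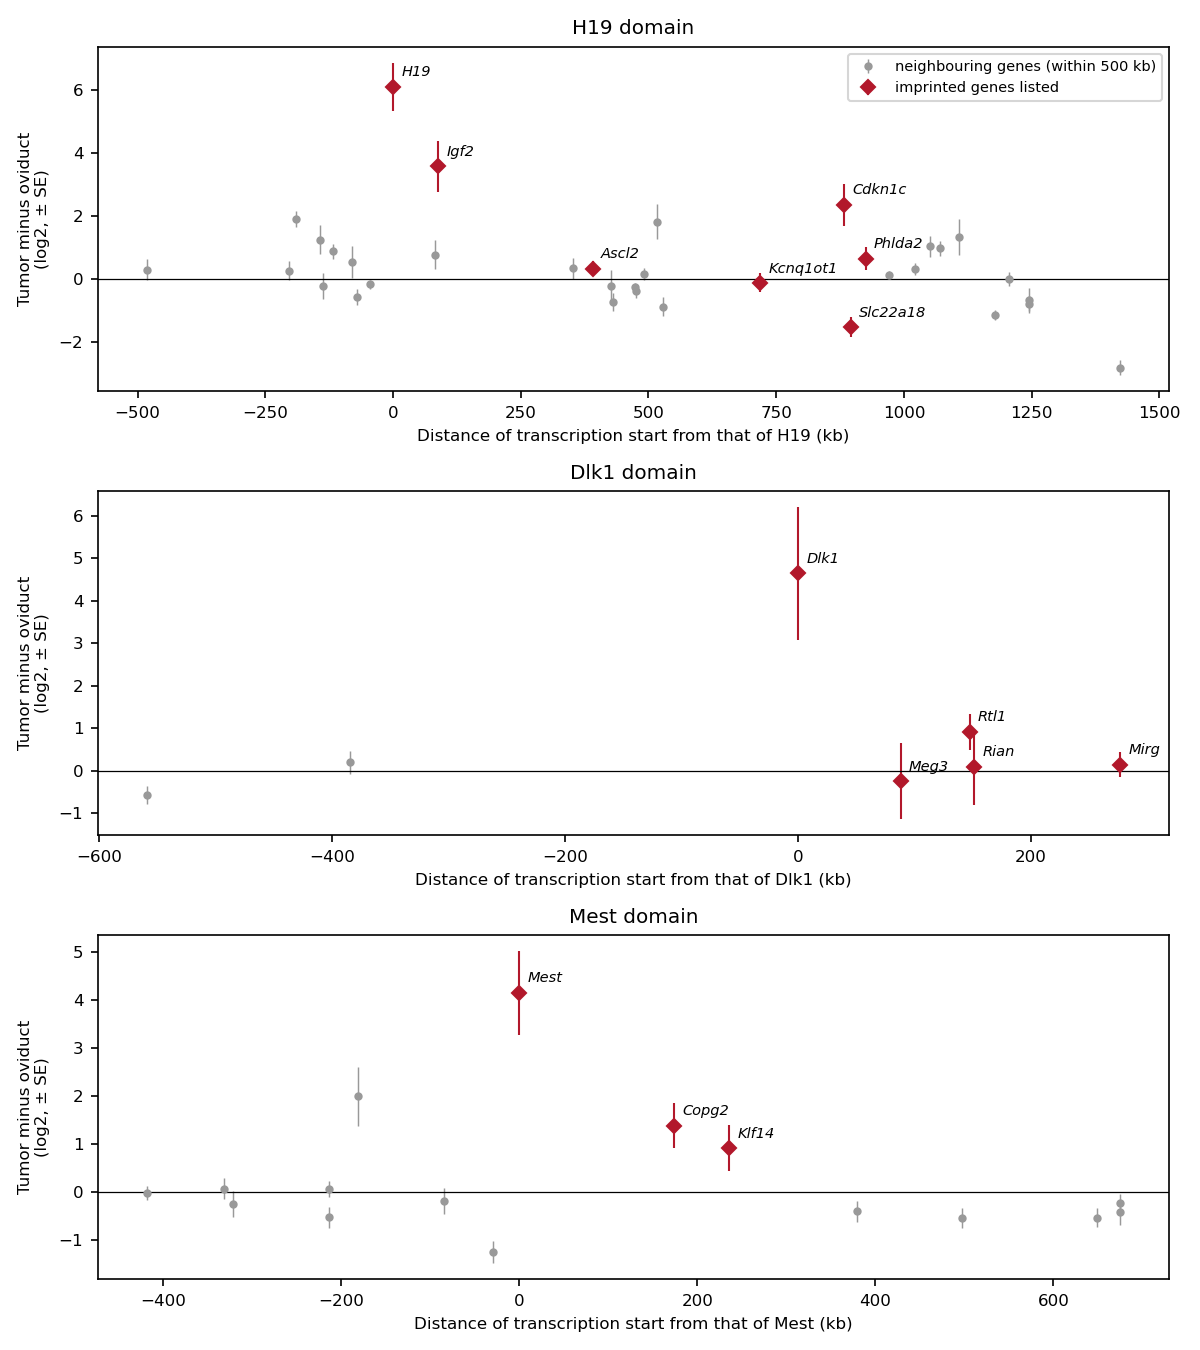
Tumor minus oviduct difference (log2, ± SE) against the distance in kilobases of each transcription start from that of H19, Dlk1 or Mest; red diamonds are the imprinted genes listed and grey points their neighbors within 500 kb. H19 at 6.11, Dlk1 at 4.64 and Mest at 4.15 are the highest points of their panels, and the genes beside them lie closer to 0.

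In the Peg10/Sgce cluster on chromosome 6, Peg10 alone was called. Peg10, a paternally expressed gene derived from a retrotransposon and needed for the placenta (chr6:4747306-4760517, plus strand), stood at 227, 257, 128, 134 and 115 in the oviducts and at 7082.5, 418, 294 and 873 in the tumors. Every tumor was above every oviduct, and tumor 1 was 41.1 times the oviduct mean while the others were 1.71 to 5.07 times that mean. The difference was 2.39 ± 0.76 (adjusted p = 0.0363), and 1.43 without tumor 1. This call was lost without tumor 4 (adjusted p = 0.0501) or any 1 oviduct (0.0573, 0.0531, 0.0751, 0.0736 and 0.0759 without oviducts 1 to 5). Sgce, the epsilon-sarcoglycan gene that starts next to Peg10 on the other strand, stood at 704, 568, 486, 582.5 and 460.0 in the oviducts and 730.3, 346, 421 and 476 in the tumors, with a difference of -0.21 ± 0.21 (adjusted p = 0.485). The ratio of Peg10 to Sgce per kilobase was 0.367 to 0.719 in the oviducts and 15.4, 1.92, 1.11 and 2.92 in tumors 1 to 4. Asb4, a maternal gene for an E3 ligase adaptor, stood at 32.4, 22.5, 14.9, 34.6 and 22.3 in the oviducts and 1443, 53.4, 7.88 and 2.10 in the tumors. Tumor 1 was thus 57.0 times the oviduct mean while tumors 3 and 4 were below every oviduct, and the difference was 0.91 ± 1.08 (adjusted p = 0.560). It was -0.48 without tumor 1, 1.48 without tumor 3 and 1.67 without tumor 4. Ppp1r9a, the neurabin gene, stood at 1151, 1056, 1096.5, 880.4 and 861 in the oviducts and 1141, 253, 451.5 and 473 in the tumors. Its difference of -0.97 ± 0.34 (adjusted p = 0.0498) fell short of the minimum size, and without tumor 1, which lay in the oviduct range, it was called at -1.35 (adjusted p = 0.00149).

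Genes of the Snrpn/Ube3a cluster, the region of the Prader-Willi and Angelman syndromes in humans, were divided. Snrpn, a paternally expressed spliceosomal protein gene (chr7:59982495-60140219, minus strand), had 2 entries in the table, and which transcripts each counts is not stated. Entry 1 stood at 44.6, 50.2, 78.6, 56.6 and 92.7 in the oviducts and 42.7, 7.95, 2.25 and 17.9 in the tumors, and entry 2 at 81.5, 132.5, 109.5, 108 and 148.5 in the oviducts and 49.5, 31.8, 13.5 and 31.5 in the tumors. In both entries the 4 tumors were below every oviduct and tumor 3 was lowest. The differences were -1.41 ± 0.37 (adjusted p = 0.0162) and -1.47 ± 0.27 (adjusted p = 0.00255). Peg12, a paternal gene of the FRAT family, went the other way, from 8.93, 9.73, 12.9, 3.93 and 0 in the oviducts to 148, 64.7, 134 and 5.26 in the tumors. Tumor 4 stayed within the oviduct range. The difference was 1.95 ± 0.59 (adjusted p = 0.0283), and the call was lost without oviduct 4 (0.0592), oviduct 5 (0.0651) or tumors 1 (0.0754), 2 (0.0597) or 3 (0.0666), all adjusted p. Ndn, the growth-restraining protein necdin, stood at 324, 331, 286, 379 and 358 in the oviducts and 666, 346, 260.1 and 175 in the tumors, with a difference of -0.05 ± 0.31 (adjusted p = 0.922). Ube3a, an E3 ubiquitin ligase imprinted in neurons, stood at 1266, 1191, 1249.8, 1014 and 1178 in the oviducts and 1232, 956, 1899 and 1132 in the tumors, with a difference of 0.10 ± 0.19 (adjusted p = 0.723). For these last 2 genes the tumors lay on both sides of the oviducts. Ube3a shares 1803 exonic bases with the antisense transcript Snhg14.

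The smaller clusters held no called member. Gnas, the stimulatory G protein subunit and per kilobase the highest member in the oviducts, stood at 8937, 8733, 8001, 9786 and 8509.6 in the oviducts and 14739.9, 10103, 10821 and 7467 in the tumors. Its difference was 0.25 ± 0.21 (adjusted p = 0.385). Gnas shares 1469 exonic bases with Gm20721 and 988 with Nespas, both on the other strand. With the strand not stated, such reads cannot be told apart. Gm20721 stood at similar levels, 7979 to 9875 in the oviducts and 8017 to 14746 in the tumors. Nnat, a small membrane protein of the paternal copy, stood at 179.7, 287.5, 265, 763 and 369.5 in the oviducts and 3282, 62.5, 1584 and 1722 in the tumors. Tumors 1, 3 and 4 were above every oviduct and tumor 2 was below them all, and the difference of 1.41 ± 0.92 (adjusted p = 0.272) was not called. Without tumor 2 it was 2.57 and called (adjusted p = 0.00198), and without tumor 1 it was 0.80. Blcap, in which Nnat lies, stood at 406, 406, 391, 378 and 477 in the oviducts and 364, 416, 395 and 787 in the tumors, with a difference of 0.18 ± 0.21 (adjusted p = 0.569). H13, a signal peptide peptidase, stood at 1824, 2102, 1647, 2823 and 1854 in the oviducts and 1941, 2612, 2163 and 2343 in the tumors, with a difference of 0.16 ± 0.17 (adjusted p = 0.519). Mcts2, a paternal retrogene within H13, stood at 32.4, 38.2, 27.9, 39.3 and 63.6 in the oviducts and 73.8, 90.8, 81.1 and 63.1 in the tumors. Its difference of 0.73 ± 0.23 (adjusted p = 0.0375) passed the adjusted p and not the minimum size. Trappc9, a trafficking complex subunit within which Peg13 lies, stood at 490.0, 413, 386, 473 and 469 in the oviducts and 276, 309, 214 and 433 in the tumors, with a difference of -0.54 ± 0.19 (adjusted p = 0.0527).

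Among imprinted genes outside these clusters, Grb10 and Slc38a4 rose and Zdbf2, Nap1l5 and Sfmbt2 fell. Grb10, an adaptor that dampens insulin and IGF receptor signals (chr11:11930508-12038683, minus strand), stood at 750.1, 753, 591, 794 and 678 in the oviducts and at 7015.5, 4346, 8823 and 2342 in the tumors. All tumors were above every oviduct, at 3.28 to 12.4 times the oviduct mean, and the difference was 2.78 ± 0.33 (adjusted p = 0.000134). Slc38a4, a paternally expressed amino acid transporter of liver and placenta (chr15:96994820-97055956, minus strand), stood at 105, 45.7, 46.8, 46.4 and 33.5 in the oviducts and 2093, 1239, 947 and 54.7 in the tumors. Tumor 4 again lay within the oviduct range, at 0.986 times their mean, and the difference was 3.21 ± 0.81 (adjusted p = 0.0132). Plagl1, a paternal zinc finger factor that regulates other imprinted genes, stood at 487, 526, 346, 360.0 and 394 in the oviducts and 2403, 712, 582 and 279 in the tumors. Plagl1 was above every oviduct in tumors 1 to 3 and below them in tumor 4. Its difference was 0.78 ± 0.48 (adjusted p = 0.240), and 1.22 without tumor 4 (adjusted p = 0.0353). Impact, a translation regulator, stood at 762, 766, 642, 490.5 and 521 in the oviducts and 1251, 603, 865 and 452 in the tumors, with a difference of 0.23 ± 0.27 (adjusted p = 0.559).

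The lower genes of this group are all expressed from the paternal copy, as are Slc38a4, Plagl1 and Impact, which were not called lower. Zdbf2, a zinc finger gene active in the brain (chr1:63273265-63314576, plus strand), stood at 34.6, 45.7, 29.9, 34.6 and 53.6 in the oviducts and at 5.83, 0, 10.1 and 3.15 in the tumors. No tumor reached the lowest oviduct, and the difference was -1.65 ± 0.29 (adjusted p = 0.00190). Sfmbt2, a polycomb protein gene needed in the placenta (chr2:10370510-10595253, plus strand), stood at 56.9, 45.7, 29.9, 34.6 and 31.3 in the oviducts and 33.0, 5.68, 0 and 1.05 in the tumors. Tumor 1 lay in the oviduct range and tumors 2 to 4 were near 0, with a difference of -1.50 ± 0.42 (adjusted p = 0.0201). Nap1l5, of the nucleosome assembly family, stood at 68.1, 136, 34.8, 50.3 and 26.8 in the oviducts and 13.6, 29.5, 2.25 and 13.7 in the tumors. Its difference was -1.32 ± 0.41 (adjusted p = 0.0325), and the call was lost without oviduct 1 (0.0718), 2 (0.0660) or 4 (0.0588) or tumor 1 (0.0563) or 3 (0.0716), all adjusted p. Inpp5f, an inositol phosphatase, stood at 988, 869, 952, 1004 and 833 in the oviducts and 397, 473.5, 522 and 465 in the tumors, without overlap. Its difference of -0.97 ± 0.12 (adjusted p = 0.000247) passed the adjusted p and fell just short of the minimum size. It was called without oviduct 5 at -1.01 and without tumor 3 at -1.03.

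Many of the rises were seen in tumors 1 to 3 and not in tumor 4. Of the 43 entries, 18 were above every oviduct in tumors 1, 2 and 3 (41.9%), against 15.7% of all entries. Of these, 13 were not above every oviduct in tumor 4 (30.2% of the members), against 4.87% of all entries. They were Igf2, Cdkn1c, Mest, Copg2, Dlk1, Rtl1, Peg3, Usp29, Peg12, Gnas, Mcts2, Plagl1 and Slc38a4. The other 5 were above every oviduct in all 4 tumors (11.6%, against 10.8%), namely H19, Igf2r, Zim1, Peg10 and Grb10. In single tumors, 30 entries were above every oviduct in tumor 1, 24 in tumor 2, 23 in tumor 3 and 11 in tumor 4, where 32.6% to 33.9% of all entries were. Tumor 4 also held 17 entries below every oviduct, while tumors 1, 2 and 3 held 8, 11 and 14. As shares these are 39.5% in tumor 4 and 18.6%, 25.6% and 32.6% in tumors 1 to 3, against 35.9% and 37.7%, 36.4% and 40.0% of all entries. Below every oviduct in all 4 tumors were 5 entries (11.6%, against 16.8% of all entries). These counts describe libraries and are not a test.

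Cell type markers also set single tumors apart. Adipoq and Plin1, the hormone and the lipid droplet protein that define fat cells, stood at 5428 and 4945 normalized counts in tumor 4. In tumors 1 to 3 Adipoq was at 0 and Plin1 at 0.971, 0 and 0. In the oviducts Adipoq was 224 to 1704, so the oviducts too held fat cell RNA. All 8 fat cell markers were measured, and 4, 4 and 5 of them were at 0 in tumors 1, 2 and 3 while 0 of 8 were at 0 in tumor 4. The part of fat cells in the levels of tumor 4 was not tested. In tumor 2, where Nnat was low, the sum of the 5 measured skeletal muscle markers was 1223, against 48.6 to 241 in the other tumors. In tumor 1, where H19, Dlk1, Peg10 and Asb4 were highest, the sum of 6 red cell markers was 49414 against 1032 to 1565 in the other tumors. Tumor 4 also had the highest macrophage sum, 48578 against 6215 to 29503 in the other tumors. Its mesothelium sum was the highest too, 10417 against 3888 to 4837. In tumor 3, where Meg3 and Rian were low, the smooth muscle sum was 3563 against 12771 to 71273.5 in the other tumors. The part of these cell types in the levels of the members was not tested either. Of 8 trophoblast markers 3 were in the table, and their sum was 84.8 to 132.8 in the oviducts and 178.7 to 347.9 in the tumors. The 3 markers disagreed, with 1 called higher and 1 lower. Gata3 was 21.9 to 32.4 in the oviducts and 50.5 to 304 in the tumors. Syna was at 0, 2.27, 0 and 0 in tumors 1 to 4, below every oviduct. Elf5 overlapped, at 41.3 to 86.5 in the oviducts and 21.4 to 143 in the tumors. The defining placental hormones Prl3d1 and Prl2c2 were not among the rows of the table.

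The oviduct genotypes were compared next, since the heterozygous oviducts share D1693N with the tumors. Between Dicer1+/D1693N and Dicer1+/+ oviducts 0 of 43 members were called, where 0.0206% of all entries (4) were called by limma. Limma-voom called 0 members and 2 entries. At an unadjusted p under 0.05 there were 0 members, against 2.75% of all entries. With 3 libraries against 2, the differences had wide errors. For H19 it was -0.33 ± 1.11 (heterozygous minus wild type), for Igf2 0.75 ± 1.16, for Mest -0.51 ± 1.27, for Peg3 0.03 ± 1.07 and for Grb10 -0.08 ± 0.47. For the members with an SE above 1, a difference of 1 was not detectable with these libraries. Although no member was called, 16 of 43 entries (37.2%) had genotypes that did not overlap, near the 32% of all entries. Igf2 was one of these, at 264.5, 159.5 and 165 in the heterozygous and 106 and 106 in the wild-type oviducts.

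The tumors were then set against each oviduct genotype, in comparisons that share the 4 tumors. Against Dicer1+/D1693N oviducts 13 members were called (16.6% of all entries were), 8 higher (5.17% of all entries were) and 5 lower (11.4%). Against Dicer1+/+ oviducts 9 were called (13.8%), 6 higher (4.07%) and 3 lower (9.74%). H19, Igf2, Igf2r, Zim1 and Grb10 were called higher, and Slc22a18, Snrpn entry 2 and Zdbf2 lower, against both. Mest, Peg3 and Usp29 were called higher against the heterozygous oviducts (adjusted p = 0.0172, 0.0348 and 0.0443) and not against the wild type (0.0586, 0.0659 and 0.109). Nap1l5 and Sfmbt2 were called lower against the heterozygous oviducts (0.0337 and 0.0444) and not against the wild type (0.269 and 0.140). Peg12 was called higher against the wild type alone (0.0487, and 0.116 against the heterozygous). The difference between these contrasts is that of the genotypes, which was called for 0 members. These counts moved with single libraries. Without tumor 4, 14 members were called higher against either genotype, where 7.29% (heterozygous) and 6.76% (wild type) of all entries were. Against heterozygous oviducts 3 to 5 were called higher without oviduct 1, 2 or 3 or tumor 1, where 2.99% to 4.75% of all entries were. Against the wild type 3 were called higher without oviduct 1, 2 or 3, where 2.97% to 3.09% of all entries were.

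Genes that set and keep imprints were examined beside the members. Of 29 measured genes for imprint maintenance and DNA methylation, 5 were called higher and 0 lower (17.2%, against 18.7% of all entries). The higher ones were Hells, Ezh2, Zfp57, Uhrf1 and Dnmt3b, of which Dnmt3b was named after its value was seen. Zfp57, the zinc finger protein that protects methylated imprints, stood at 105, 114.5, 68.7, 99.8 and 59.2 in the oviducts and 509.8, 345, 895 and 91.5 in the tumors. It too was high in tumors 1 to 3 and in the oviduct range in tumor 4, with a difference of 1.81 ± 0.50 (adjusted p = 0.0207). Zfp57 was not called against either oviduct genotype alone, while Hells, Ezh2, Uhrf1 and Dnmt3b were called against both. Hells, a chromatin remodeler needed for DNA methylation, rose from 46.5 ± 13.6 to 367 ± 168.7, by 2.49 ± 0.28 (adjusted p = 0.000112). Ezh2, the polycomb methyltransferase, rose from 99.8 ± 29.3 to 463 ± 137, by 2.00 ± 0.25 (adjusted p = 0.000182). Uhrf1, which brings DNMT1 to replicating DNA, rose by 1.33 ± 0.18 (adjusted p = 0.000398), and Dnmt3b, a de novo methyltransferase, by 1.29 ± 0.21 (adjusted p = 0.00124). In these 4 genes tumor 4 lay above every oviduct as well.

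Other imprinted genes not among the members showed a share of calls near that of the table. Of 31 measured, 2 were called higher and 5 lower (22.6%, against 18.7% of all entries). Tfpi2, a protease inhibitor, rose from 11.8 ± 6.41 to 69.1 ± 27.8, by 1.59 ± 0.29 (adjusted p = 0.00208). Ddc, which lies beside Grb10, rose from 4.17 ± 2.23 to 31.3 ± 20.3, by 1.27 ± 0.29 (adjusted p = 0.00750). Rasgrf1, a paternally expressed exchange factor, stood at 52.5 to 166 in the oviducts and at 0, 0, 0 and 2.10 in the tumors, with a difference of -3.36 ± 0.34 (adjusted p = 4.47e-05). Gatm, Atp10a, Osbpl5 and Zrsr1 were lower by -1.85 ± 0.36, -1.60 ± 0.28, -1.15 ± 0.16 and -1.15 ± 0.23. Of 8 receptors and partners of IGF2, the RNA-binding proteins Igf2bp2 and Igf2bp1 were called higher and 0 lower (25%, against 18.7% of all entries). Igf2bp1 was not called against either oviduct genotype alone. Igf2bp2 rose from 283 ± 9.76 to 1888.5 ± 979, by 2.48 ± 0.32 (adjusted p = 0.000243). Igf2bp1 was at 586 in tumor 1 and at 22.7, 51.8 and 23.1 in tumors 2 to 4, against 3.14 to 5.99 in the oviducts.

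Genes that neighbor the members, within 500 kb, did not stand out from the table. Of 204 neighbors 18 were called higher and 20 lower (18.6%, against 18.7% of all entries), with a median difference of -0.05. The neighbors include imprinted genes already counted among the other imprinted genes, such as Atp10a, Osbpl5, Ddc and Kcnq1. Among the largest rises were Tpx2, a spindle protein (3.04 ± 0.28), Col1a2, a collagen chain (2.73 ± 0.32), and Fignl1 (1.99 ± 0.28). The largest falls were Mdh1b (-4.41 ± 0.28), Ttll9 (-4.17 ± 0.26), 6820408C15Rik (-4.14 ± 0.35) and Shank2 (-2.81 ± 0.25).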

How the data were processed

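Poly-A RNA of 9 libraries was counted per gene. The submitters' processing notes name FastQC 0.11.5, STAR 2.5.3a and HTSeq with GRCm38 (mm10); strandedness and annotation are not given in the sources used here. The deposited values are on a log2 scale, and the authors' transformation is not stated. They fitted a variance-stabilizing form with a shared floor of 3.427, and undoing it gave whole reads for 100% of values (tolerance 0.05), from which normalized counts were taken. This log2 scale understates changes of genes with few reads. Each table entry held at least 10 reads in total. Intervals and the limit of 3 counts cover counting error only.

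Symbols were matched to GENCODE M21. Deposited log2 values were tested with limma 3.58.1 in R 4.3.3 (two-sided, trended prior, 19435 entries, no filter on low values). The 2-group model compared tumors with oviducts, and a 3-group model made the comparisons by oviduct genotype. No batch is given. The test was checked on simulated data. Alternatives were quantile normalization, a low-value filter, log2 of normalized counts plus 1 or 10, limma-voom on recovered reads, no trend, no minimum change, a replicate block and leaving out each library.

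Members and gene lists were chosen with earlier results of these data known. All members were named, of each other list up to 4 called genes per direction, and of marker lists only defining genes. 1 gene that this rule names is not reported here.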

Additional observations from a re-analysis of the deposited data

Results flagged for a closer look

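Of 86 groups of 4 or 5 libraries tested over the 43 entries, 8 held a library whose gap to the nearest other passed Dixon's limit, and chance gives about 4.3. In tumor 4, Cdkn1c was low at 273.4 normalized counts against 2710.6 to 4027 in the other tumors. Mest was low there at 204.0 against 4922 to 7770.0, and Copg2 at 556.3 against 2880 to 3958, while Blcap was high at 786.6 against 364 to 416. In tumor 3, Rian was low at 4.5 against 490.1 to 666, and Phlda2 was high at 49.5 against 3.88 to 6.81. Among the oviducts, Mirg was low in oviduct 3 at 1.99 against 8.98 to 12.3, and Slc38a4 was high in oviduct 1 at 104.9 against 33.5 to 46.8. Of these flags, 4 fell in tumor 4, and chance alone would flag about 1 group in 20.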

How the results depend on the processing

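Under every alternative that tested them, 11 of the 20 called members kept their call: H19, Igf2, Igf2r, Mest, Peg3, Zim1, Grb10, Slc22a18, Snrpn entry 2, Zdbf2 and Sfmbt2. There were 17 such settings, and 16 for Zdbf2 and Sfmbt2, which the low-value filter removed. The other 9 lost it under at least 1 setting, and 8 of the 23 uncalled members were called under at least 1; the cause was not tested. Beside the losses named with single libraries, limma-voom lost the calls of Usp29 (adjusted p = 0.0821), Slc38a4 (0.0817), Peg12 (0.0740), Peg10 (0.0669), Copg2 (0.0512) and Dlk1 (0.437). The replicate block lost those of Snrpn entry 1 (0.0831), Copg2 (0.0720), Cdkn1c (0.0688) and Dlk1 (0.0515). Quantile normalization lost those of Nap1l5 (0.0622) and Copg2 (0.0518). Without a trend Copg2 (0.0568) and Dlk1 (0.0534) were lost. With log2 of normalized counts plus 1 Dlk1 was lost (0.0879).

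Between tumors and oviducts limma-voom called 8 members higher (6.49% of all entries were), and 6051 entries passed with no minimum change. Against Dicer1+/D1693N oviducts, limma-voom called 5 members higher (4.71% of all entries were). The low-value filter left 3 lower there (11.5% of the entries it kept were). Against Dicer1+/+ oviducts limma-voom called 2 higher (3.22% of all entries were). Between the oviduct genotypes 0 entries were called with log2 of normalized counts plus 1, and 2 with limma-voom.

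Leaving out 1 library gave 3250 to 4170 called entries, 10 to 15 higher and 5 to 7 lower members between tumors and oviducts. The counts were 2215 to 3890, 3 to 14 and 1 to 5 against Dicer1+/D1693N oviducts, and 1123 to 3570, 1 to 14 and 0 to 5 against Dicer1+/+ oviducts. Lower members were 1 without oviduct 2, and 2 without oviduct 1 or 3, in the first of these, and 0 without oviduct 4 and 5 without tumor 1 in the second. Between genotypes 0 to 4 entries and 0 members were called. Without oviduct 4 or 5 a single Dicer1+/+ library remained, which is assumed to vary like the other groups.

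Same-numbered oviducts and tumors deviated from their group means with correlations of 0.117, 0.061, -0.089 and 0.006, against -0.146 to 0.139 for other pairs. The same-numbered values lay within the range of the other pairs. With so few pairs this cannot exclude a pairing, and the labels state none. With the number as a replicate block, tumors against oviducts gave 11 higher and 6 lower members and 3230 called entries. The block gave 13 higher and 2 lower members against Dicer1+/D1693N oviducts, 0 and 0 members and 642 entries against Dicer1+/+ oviducts, and 2 entries between genotypes.

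Leaving out 1 library changed the sign of 10 uncalled members. The differences then ran from -0.33 (without tumor 1) to 0.15 (without tumor 4) for Kcnq1ot1, from -0.88 (tumor 1) to 0.97 (tumor 3) for Meg3, and from -0.0019 (oviduct 3) to 0.40 (tumor 3) for Mirg. Asb4 ran from -0.48 (tumor 1) to 1.67 (tumor 4), Ndn from -0.38 (tumor 1) to 0.22 (tumor 4), Ube3a from -0.09 (tumor 3) to 0.23 (tumor 2), Blcap from -0.07 (tumor 4) to 0.29 (tumor 1) and Impact from -0.02 (tumor 1) to 0.46 (tumor 4). Airn ran from -0.27 (tumor 3) to 0.41 (tumor 4) and was -0.04 with the replicate block. Rian ran from -0.39 (tumor 1) to 1.31 (tumor 3), and was -0.28 with log2 of normalized counts plus 1 and -0.25 with limma-voom. Gnas reversed under quantile normalization (-0.08), which moved the median of all entries from -0.048 to 0.078 on the log2 scale. Few reads in at least 1 group limit the precision of members such as Usp29, Zim1, Rtl1 and Zdbf2.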
